A study of Mus musculus with 27 samples.

Results

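The genes described here are 46 mouse genes of the lysosome and of autophagy, chosen by symbol, and all 46 were found among the 45195 gene rows of the count table. By role they were 15 soluble lysosomal hydrolases and cofactors, 6 lysosomal membrane proteins, 4 subunits of the V0 sector and 6 of the V1 sector of the vacuolar ATPase (V-ATPase), 7 genes of autophagy initiation and conjugation, 6 genes of the ATG8 family with its cargo receptor, and 2 transcription factors. Every one of the 46 passed the filter on low counts in each comparison.

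The study followed adult neurogenesis in the mouse, in which neural stem cells of the subventricular zone (SVZ) give rise to neuroblasts that migrate to the olfactory bulb (OB) and become neurons, and asked how translation is controlled along that route. Male mice of a C57BL/6 background, 8 to 12 weeks old, were given tamoxifen at 200 mg/kg by gavage. Both lines carry an inducible Cre, an HA-tagged ribosomal protein Rpl22 (RiboTag) and an eYFP reporter, with Cre under the Tlx gene in TiCRY and under the Dcx gene in DiCRY. Polyadenylated RNA was amplified with Smart-seq2, a full-length protocol for small inputs. Total mRNA came from 200 to 500 eYFP-positive sorted cells of 1 to 2 mice a library, with 3 libraries each of neural stem cells (NSC, from SVZ of TiCRY mice), early neuroblasts (ENB, from SVZ of DiCRY mice), late neuroblasts (LNB, from OB of DiCRY mice) and Neuron (from OB). Ribosome-bound mRNA came from an anti-HA immunoprecipitate of whole-tissue homogenate, with 2 NSC, 2 ENB, 3 LNB and 2 Neuron libraries. Background controls were the same immunoprecipitation from tissue without HA, with 3 SVZ and 3 OB libraries. Their line codes differ within each group: SVZ control 1 carries TICRY with 4d and SVZ controls 2 and 3 carry Cre-, while OB controls 1 and 2 carry DICRY and OB control 3 carries Dxc. The sample descriptions of the ribosome-bound libraries carry the codes 4d for NSC and 3dp or 3dpi for ENB and LNB, and those of all Neuron libraries 4wpi with the line code Dxc; of the OB controls, libraries 1 and 2 carry 3dpi and library 3 carries 4wpi.

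Depth was 5225929 to 15994635 counts in the total libraries, 6325479 to 13316334 in the ribosome-bound ones and 5960357 to 9120659 in the controls. Replicates of a group correlated at a Spearman coefficient of 0.880 to 0.945 over 24 pairs, and none held identical values. The Neuron immunoprecipitates carry a total mRNA label and a sorting protocol but are named as ribosome libraries, and they were grouped by that name. Their labels do not settle whether the input was homogenate or sorted cells. In comparisons of these libraries with other immunoprecipitates, a difference of input cannot be told apart from one of stage. In total mRNA, the summed level of 7 neuroblast markers such as Dcx was 2659 to 3175 CPM (counts relative to library size, scaled by TMM factors, edgeR's correction for composition) in NSC, 9821 to 10877 CPM in ENB, 4781 to 9851 CPM in LNB, and 1017 to 1090 CPM in Neuron, and that of 6 mature neuron markers was highest in Neuron. Summed levels of 9 mature astrocyte markers reached 7109 and 10106 CPM in total LNB libraries 1 and 3, against 1041 CPM in LNB library 2 and 186 to 982 CPM in the 3 ENB libraries, so LNB libraries 1 and 3 stand apart from their group. OB control library 3 stands apart as well, with a summed level of the 46 genes of 5051 CPM, against 8649 and 9516 CPM in the other two. In these bulk libraries, fewer cells of a type and less RNA per cell cannot be told apart.

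Lysosomes are acidic organelles that degrade proteins, lipids and sugars. The V-ATPase acidifies them: the cytosolic V1 sector hydrolyses ATP and the membrane-embedded V0 sector passes protons into the lumen; in neurons the same pump also acidifies synaptic vesicles and so drives their loading with transmitter. Autophagy delivers cytoplasm to the lysosome in vesicles whose membranes carry lipid-linked proteins of the ATG8 family. The transcription factors TFEB and TFE3 bind a short palindrome in the promoters of many lysosomal genes.

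The promoters of 4 members that hold this palindrome are printed because they show, in members of 4 role groups, the sequence through which TFEB and TFE3 are known to act. Each is the 250 bases before a RefSeq start (GRCm38.p6), 5′ to 3′ on the strand of the gene, with the palindrome TCACGTGA in capitals. Its first base lies at -132 from the start in Atp6v1a (chr16:44139260-44139509, minus strand), at -99 in Ctsd (chr7:142387828-142388077, minus strand), at -46 in Mcoln1 (chr8:3500269-3500518, plus strand) and at -72 in Atg3 (chr16:45158579-45158828, plus strand).
Atp6v1a: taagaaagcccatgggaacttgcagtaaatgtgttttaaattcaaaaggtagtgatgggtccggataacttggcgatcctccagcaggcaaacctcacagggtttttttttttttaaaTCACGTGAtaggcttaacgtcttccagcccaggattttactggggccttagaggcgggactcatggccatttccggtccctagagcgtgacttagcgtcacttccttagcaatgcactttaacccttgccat
Ctsd: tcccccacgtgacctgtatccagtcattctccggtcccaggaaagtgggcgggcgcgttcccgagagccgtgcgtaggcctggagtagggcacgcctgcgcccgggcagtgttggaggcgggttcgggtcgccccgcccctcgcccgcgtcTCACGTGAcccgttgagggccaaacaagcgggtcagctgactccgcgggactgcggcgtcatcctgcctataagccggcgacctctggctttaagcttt
Mcoln1: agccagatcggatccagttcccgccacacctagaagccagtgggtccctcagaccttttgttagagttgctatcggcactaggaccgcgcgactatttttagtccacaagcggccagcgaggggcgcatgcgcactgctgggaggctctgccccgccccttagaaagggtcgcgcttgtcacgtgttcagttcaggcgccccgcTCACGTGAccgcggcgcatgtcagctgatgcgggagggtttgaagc
Atg3: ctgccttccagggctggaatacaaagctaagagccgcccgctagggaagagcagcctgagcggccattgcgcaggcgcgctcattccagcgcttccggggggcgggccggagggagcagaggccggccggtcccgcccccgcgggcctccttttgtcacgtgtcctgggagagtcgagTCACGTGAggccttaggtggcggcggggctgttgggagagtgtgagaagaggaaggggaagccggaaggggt
Among the 38 members with a promoter entry, 6 (15.8%) held TCACGTGA, against 239 (0.886%) of 26987 other genes. The shorter core CACGTG, which the longer motif contains, was present in 13 members (34.2%) and in 1841 other genes (6.82%). Both motifs are palindromes, so a search of 1 strand covers both. These matches describe the sequence only. The other members with the longer motif were Ctsa and Gla, while Atp6v1c1, Atp6v1b2, Atp6v1h, Map1lc3a, Atg12, Npc1, Becn1 and Ctsb had no entry.

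Along the 4 stages, 27 of the 46 genes differed in total mRNA and 24 in ribosome-bound mRNA by an F test (edgeR's quasi-likelihood test on raw counts, Benjamini-Hochberg adjusted p under 0.05 over all genes tested, the threshold used throughout). The same test passed 32.8% of all genes in total mRNA and 34.1% in ribosome-bound mRNA. In total mRNA 7 members were called in ENB against NSC, 4 higher and 3 lower, where 10.1% of all genes were called, 4.95% higher and 5.12% lower. In LNB against ENB 4 members were called, all higher, where 3.77% of all genes were called and 2.8% were higher. In Neuron against LNB 10 members were called, 8 higher and 2 lower, where 14.7% of all genes were called, 5.33% higher and 9.34% lower. Neuron against NSC gave 15 higher and 3 lower members, where 23.7% of all genes were called, 11% higher and 12.8% lower. In ribosome-bound mRNA 3 members were called lower in ENB against NSC, where 8.28% of all genes were called and 4.85% were lower. In LNB against ENB 5 were higher and 1 lower, where 12.9% of all genes were called, 6.81% higher and 6.05% lower. In Neuron against LNB 1 was lower, where 4.13% of all genes were called and 3.75% were lower. The members' shares in these ribosome-bound steps lay near those of all genes. Neuron against NSC gave 14 higher and 10 lower members in ribosome-bound mRNA, where 26.7% of all genes were called, 11% higher and 15.7% lower. The median log2 fold change of the members in Neuron against NSC was 0.49 in total and 0.24 in ribosome-bound mRNA, against -0.06 and -0.05 over all genes tested. Across 19 comparisons, 39 members were called at least once, and Atg12, Atg7, Gla, Glb1, Ppt1, Scarb2 and Tfe3 were called in none. Genes outside the rule for printed values, such as these, are named here after their values were seen.

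**Figure D1:**
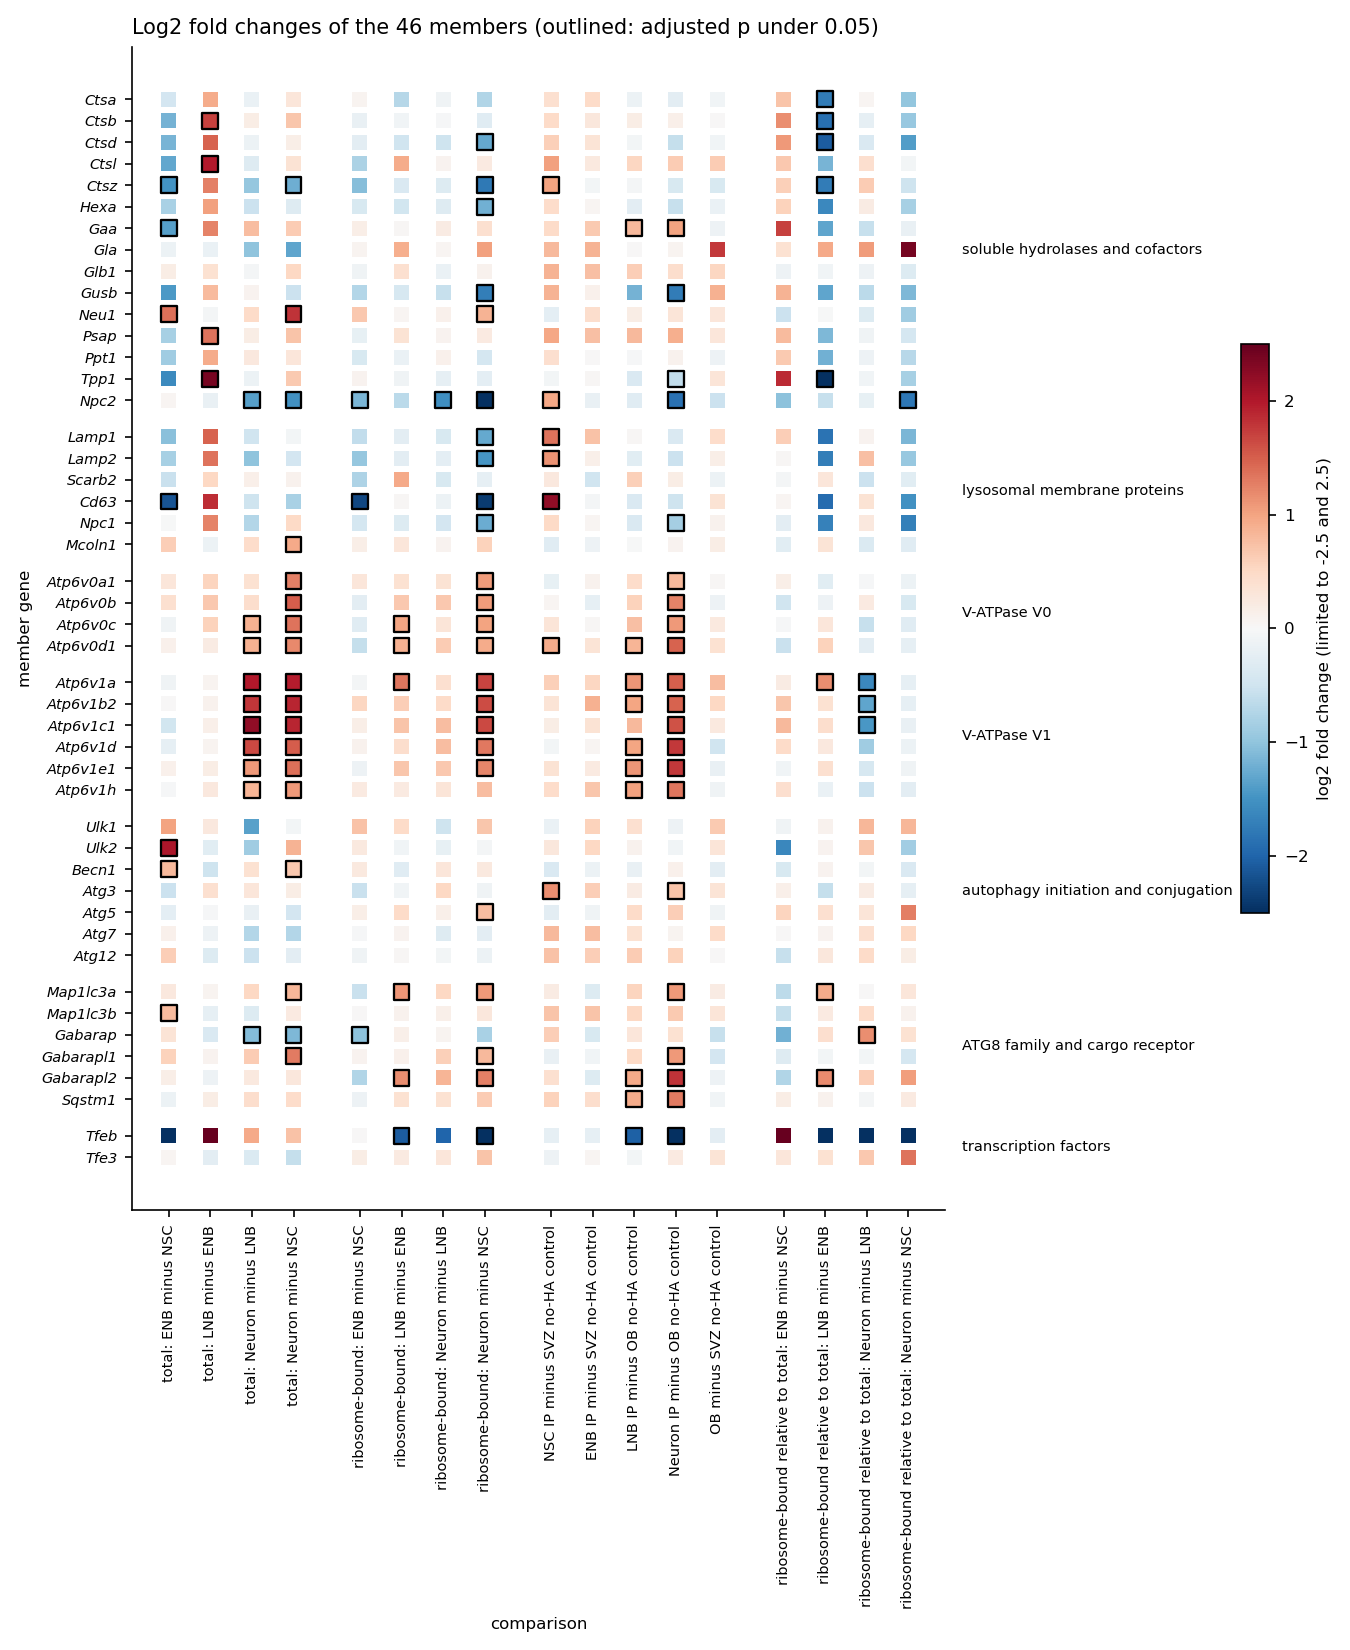
Log2 fold changes of the 46 genes (rows, ordered by role) in 17 comparisons (columns), with the colour scale limited to ±2.5; outlined squares have an adjusted p under 0.05. The 10 V-ATPase rows are outlined in Neuron against NSC of total mRNA, while hydrolase and membrane protein rows hold changes in both directions.

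The V-ATPase genes were higher in Neuron than in LNB (8 of 10 subunits) and NSC (10 of 10). In total mRNA all 6 V1 subunits rose in Neuron against LNB, where 5.33% of all genes were called higher, with log2 fold changes of 0.84 to 2.21 and a median of 1.72. Against NSC all 10 subunits rose in Neuron, by 1.09 to 1.97 on the log2 scale, where 11% of all genes were called higher. The median over all genes tested was -0.18 against LNB and -0.06 against NSC.

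Atp6v1a encodes the catalytic A subunit of V1. Its total mRNA was at 169.8, 146 and 205 CPM in NSC, 153, 154 and 179 CPM in ENB, 163, 188 and 156 CPM in LNB, and 447, 626 and 965 CPM in Neuron libraries. The first 3 stages overlapped and every Neuron library lay above them all. Atp6v1b2, the B subunit that completes the catalytic sites in brain, was at 210.3, 168 and 236 CPM in NSC, 232, 195 and 192 CPM in ENB, 218, 252 and 197 CPM in LNB, and 575, 766 and 969 CPM in Neuron. Atp6v1c1, a stalk subunit that links V1 to V0, was at 98.5, 57.2 and 107 CPM in NSC, 58.5, 62.1 and 68.1 CPM in ENB, 58.2, 70.2 and 81.9 CPM in LNB, and 248, 315 and 413 CPM in Neuron. For these genes too, no Neuron library reached down to any earlier library. In Neuron against LNB the log2 fold change was 2.01 ± 0.27 (SE) for Atp6v1a (edgeR adjusted p = 0.000663), 1.79 ± 0.23 for Atp6v1b2 (adjusted p = 0.000542) and 2.21 ± 0.28 for Atp6v1c1 (adjusted p = 0.000486).

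Of the 4 V0 subunits, 2 were called in that step. Atp6v0c, the proteolipid of the rotating ring, was at 158, 144 and 176 CPM in NSC, 134, 164 and 148 CPM in ENB, 235, 183 and 243 CPM in LNB, and 360.0, 401 and 468 CPM in Neuron. Atp6v0d1, which couples the ring to the stalk, was at 114, 114 and 119.8 CPM in NSC, 132, 124 and 122 CPM in ENB, 141, 155 and 139.8 CPM in LNB, and 285, 282 and 238 CPM in Neuron. Both were called higher in Neuron than in LNB, by 0.89 ± 0.19 (adjusted p = 0.00897) for Atp6v0c and 0.88 ± 0.16 (adjusted p = 0.0038) for Atp6v0d1. Atp6v0a1 and Atp6v0b were not called in that step. Pseudogene entries, 2 in number, are annotated for Atp6v0c, so its reads could be split between copies. In LNB against ENB the 4 V0 genes had a median log2 fold change of 0.56 in total mRNA, against 0.05 over all genes tested. None of these changes was called.

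Total V-ATPase calls held when single libraries were left out, except for that of Atp6v1h in Neuron against LNB, which was lost without LNB library 3 (adjusted p = 0.0613) or Neuron library 3 (adjusted p = 0.0564). With LNB libraries 1 and 3 left out together, an alternative chosen after seeing the data, 5 of 6 V1 subunits were called in Neuron against LNB (median 1.66) and 1 of 4 V0 subunits. When only the LNB and Neuron groups were fitted, 5 of the 8 calls in Neuron against LNB remained, all of V1 subunits. Those of Atp6v0c (adjusted p = 0.0559), Atp6v0d1 (0.0543) and Atp6v1h (0.0716) were lost. Among libraries that share the second sequencing index, the Neuron minus LNB difference in mean log2(CPM + 1), over 3 against 1 libraries, was 1.77 for Atp6v1a, 1.58 for Atp6v1b2 and 2.17 for Atp6v1c1. Mature neuron markers moved with these genes: the summed level of 6 such markers (Rbfox3, Snap25, Syt1, Syp, Gad1, Calb2) was 6359 to 9774 CPM in Neuron, against 616 to 1282 CPM in LNB and 143 to 985 CPM in NSC, and 5 of 6 were called higher in Neuron than in LNB and all 6 higher than in NSC. Their part in the V-ATPase result was not tested.

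**Figure D2:**
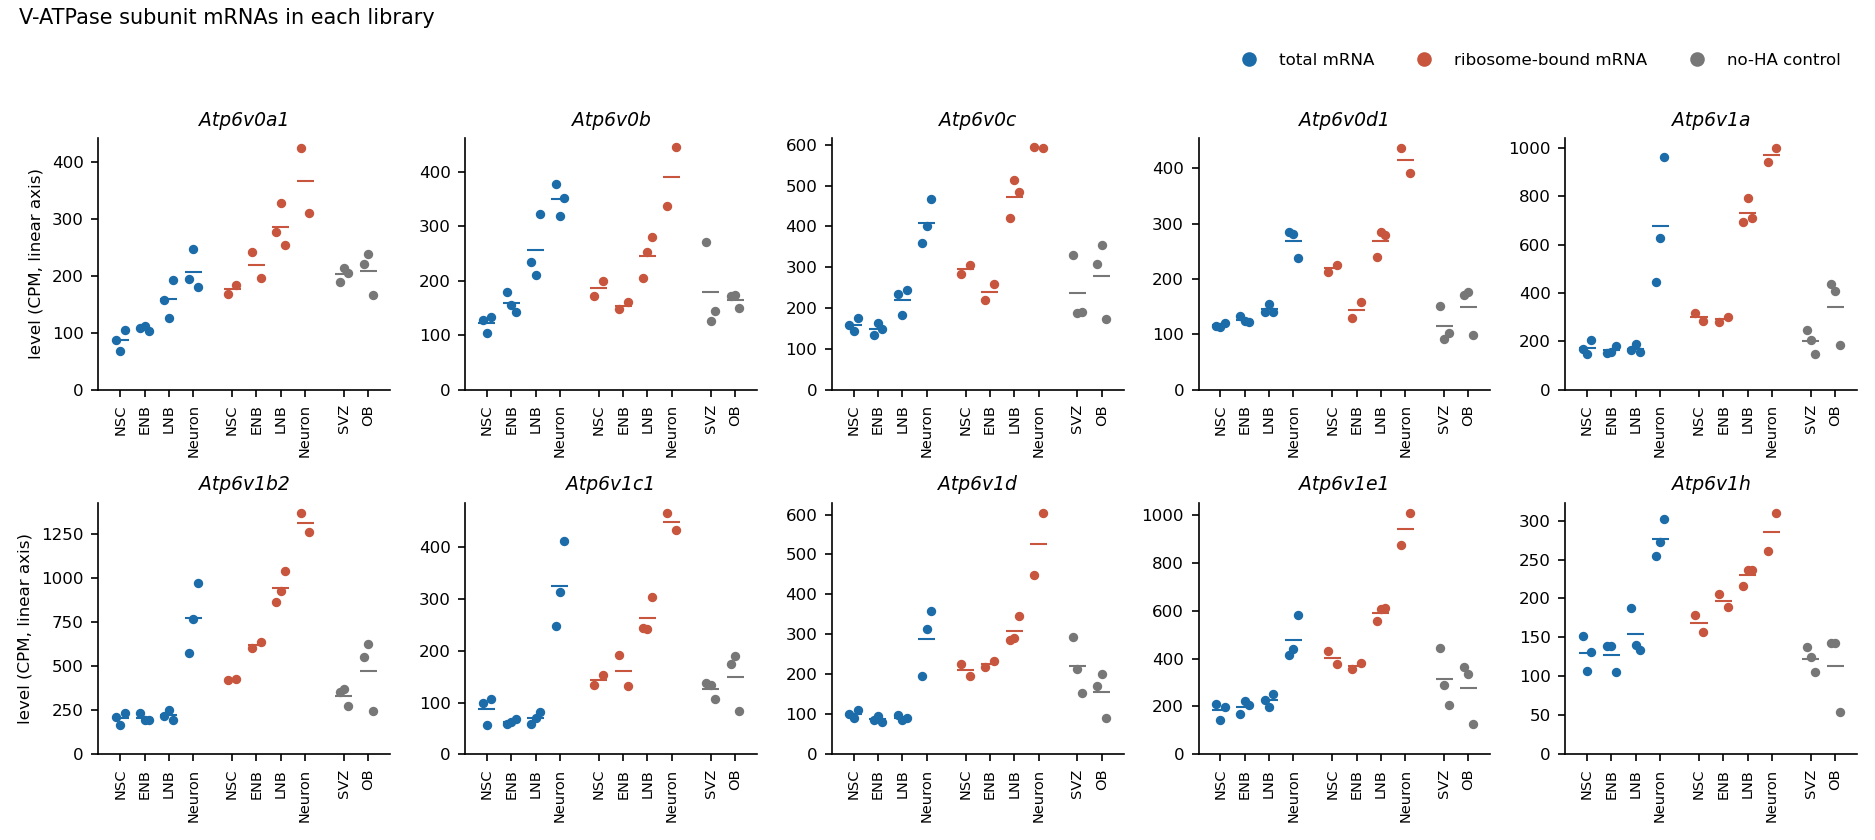
Level in CPM (vertical axis) of each of the 10 V-ATPase subunits in all 27 libraries, by group along the horizontal axis; points are libraries in blue for total mRNA, red for ribosome-bound mRNA and grey for no-HA controls, and bars are group means. For Atp6v1a the 3 total Neuron libraries lie at 447, 626 and 965 CPM, above every other total library, and the ribosome-bound LNB and Neuron libraries lie above those of NSC and ENB.

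In ribosome-bound mRNA the LNB libraries already lay above those of NSC and ENB for Atp6v1a, Atp6v1b2 and Atp6v1c1. Levels in total and immunoprecipitated libraries were scaled separately and are not compared with each other directly. Atp6v1a was at 316 and 286 CPM in NSC, 279.8 and 302 CPM in ENB, 693, 796 and 711 CPM in LNB, and 943 and 999 CPM in Neuron immunoprecipitates. Atp6v1b2 was at 419.9 and 428 CPM in NSC, 601 and 637 CPM in ENB, 863, 926 and 1040.0 CPM in LNB, and 1366 and 1259.5 CPM in Neuron. Atp6v1c1 was at 134 and 152 CPM in NSC, 192 and 132 CPM in ENB, 244, 241 and 305 CPM in LNB, and 466 and 434 CPM in Neuron. The LNB libraries lay above the ENB ones and the Neuron libraries above the LNB ones for all 3 genes. For Atp6v1b2 the ENB libraries lay above the NSC ones too. Of these steps only the rise of Atp6v1a from ENB to LNB was called, and no V-ATPase subunit was called in Neuron against LNB.

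Of the 10 V-ATPase subunits, Atp6v1a, Atp6v0c and Atp6v0d1 were called higher in LNB than in ENB, where 6.81% of all genes were. Their log2 fold changes were 1.33 ± 0.32 (edgeR adjusted p = 0.011), 0.98 ± 0.30 (adjusted p = 0.0432) and 0.89 ± 0.27 (adjusted p = 0.04). The call of Atp6v1a was lost without ENB library 1 (adjusted p = 0.0971) or ENB library 2 (adjusted p = 0.0679), and those of Atp6v0c and Atp6v0d1 without any single ENB or LNB library, without OB control library 1 or without SVZ control library 2, and that of Atp6v0c also without either NSC library. ENB and LNB libraries 1 and 2 came from the same animals, and with the animal as a block 2 of the 6 members called in this step remained called. In Neuron against NSC all 4 V0 subunits and 5 of 6 V1 subunits were called higher, where 11% of all genes were, with changes of 1.69 ± 0.34 for Atp6v1a (adjusted p = 0.00168), 1.63 ± 0.34 for Atp6v1b2 (adjusted p = 0.0019) and 1.65 ± 0.33 for Atp6v1c1 (adjusted p = 0.00139). These 3 held with any single library left out. The 4 V0 calls, Atp6v1d and Atp6v1e1 each lost theirs without at least 1 of the NSC or Neuron libraries, with adjusted p up to 0.15. In these libraries the mature neuron markers summed to 2474 and 2673 CPM in NSC, 3133 and 3254 CPM in ENB, 8682 to 9060 CPM in LNB, and 15059 and 15572 CPM in Neuron. Markers of other cells of the SVZ moved with the step from ENB to LNB in the opposite direction. All 8 oligodendrocyte markers were called lower in LNB than in ENB, with mean sums of 2020 CPM in LNB and 20049 CPM in ENB. All 7 striatal projection neuron markers were called lower as well, with mean sums of 605 CPM in LNB and 5355 CPM in ENB, and in the SVZ controls these lists averaged 19786 and 5457 CPM. The part of these markers was not tested.

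Against the no-HA background the V-ATPase genes were enriched in the OB immunoprecipitates. In Neuron immunoprecipitates 21 of the 46 members were called against the OB control (16 higher and 5 lower), where 27.4% of all genes were, 11.6% higher and 15.7% lower. All 10 V-ATPase subunits were among the higher ones, by 0.81 to 1.78 on the log2 scale. In LNB immunoprecipitates 10 members were called (9 higher and 1 lower), where 10.1% of all genes were, 7% higher and 3.06% lower. Among the higher ones were 5 of 6 V1 subunits and Atp6v0d1. Atp6v1a was at 943 and 999 CPM in Neuron and 693, 796 and 711 CPM in LNB immunoprecipitates, against 438, 408 and 183 CPM in the OB controls, so control library 3 lay lowest. Without that library, all 10 subunits remained called in Neuron (median 1.25 for V1 and 1.01 for V0) and 3 of 6 V1 subunits in LNB. Control library 3 is the only OB control with the codes 4wpi and Dxc of the Neuron libraries. This refit thus sets Neuron only against controls that carry 3dpi and DICRY. Of the 10 calls in LNB, each was lost without at least 1 of the LNB libraries, with adjusted p up to 0.148. With another scaling (RLE, the median-ratio factors, in place of TMM) only Atp6v1a of the 9 higher calls remained. That scaling called 2 members lower, Tfeb among them. When only the LNB and OB control groups were fitted, 4 of the 9 higher calls remained, of which 2 were V-ATPase subunits, Atp6v0d1 and Atp6v1d. In Neuron the V0 calls of Atp6v0a1, Atp6v0b and Atp6v0c were lost without a Neuron library (adjusted p = 0.144 without library 1 for Atp6v0a1, 0.0566 and 0.0598 without library 2 for the other two). When only the Neuron and OB control groups were fitted, 6 of the 16 higher calls remained, and of the 10 V-ATPase subunits Atp6v0b, Atp6v0d1, Atp6v1c1 and Atp6v1d did.

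In the SVZ, 7 members were called in NSC immunoprecipitates against their background and none in those of ENB. In NSC, the 7 members were all higher than in the SVZ control, where 15.3% of all genes were called and 8.75% were higher. They were Cd63, Lamp1, Lamp2, Npc2, Ctsz, Atp6v0d1 and Atg3. Of these calls 2 held with any single library left out. With the replicate number as a block 3 members were called, and 3 with the second index as a term. In ENB no member was called by edgeR, with 8 at an unadjusted p under 0.05 and 1 called by DESeq2, where 1.52% of all genes were called. Between the OB and SVZ controls themselves no member was called by edgeR either, with 6 at an unadjusted p under 0.05 and 3 called by DESeq2, where 11.8% of all genes were called. The summed level of 8 oligodendrocyte markers averaged 8320 CPM in NSC and 20049 CPM in ENB immunoprecipitates, against 19786 CPM in the SVZ controls.

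In total mRNA the soluble hydrolases and membrane proteins took another course from the pump between NSC and LNB. They stood lower in ENB than in NSC by their medians. The median log2 fold change was -0.88 for the 15 hydrolases and cofactors and -0.69 for the 6 membrane proteins, against -0.01 over all genes tested. The tests called 3 of these 21 lower, Cd63, Ctsz and Gaa, and 1 higher, Neu1, where 5.12% of all genes were called lower and 4.95% higher. In LNB against ENB the medians were 1.02 and 1.30, with Ctsb, Ctsl, Psap and Tpp1 called higher, where 2.8% of all genes were. For Neuron minus LNB, 3 Neuron libraries share the second index with LNB library 2 alone. Their difference in mean log2(CPM + 1) ran from -1.85 (Gla) to 1.88 (Gaa) for hydrolases and cofactors. It ran from 0.03 (Lamp2) to 1.22 (Cd63) for membrane proteins, and from 0.70 (Atp6v0a1) to 2.17 (Atp6v1c1) for V-ATPase subunits.

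Cd63, a tetraspanin of late endosomes and lysosomes, was at 337, 411 and 367 CPM in NSC, 84.6, 94.7 and 71.9 CPM in ENB, 289.6, 85.5 and 530.1 CPM in LNB, and 187, 304 and 140.4 CPM in Neuron. It fell by 2.15 ± 0.50 on the log2 scale in ENB against NSC (edgeR adjusted p = 0.0209). A pseudogene is annotated for Cd63, so its reads could be split. Lamp1, the main glycoprotein of the lysosomal membrane, was at 451, 504 and 526 CPM in NSC, 254, 221 and 241 CPM in ENB, 655, 249 and 1089 CPM in LNB, and 263, 699 and 450.4 CPM in Neuron. Ctsd, an aspartic protease, was at 321, 343 and 388 CPM in NSC, 158, 162 and 148 CPM in ENB, 435, 169 and 693 CPM in LNB, and 248, 518 and 409 CPM in Neuron. ENB lay lowest for all 3 genes, and LNB library 2 lay close to the ENB libraries while LNB libraries 1 and 3 lay far above it. Ctsa, a carboxypeptidase that stabilises neuraminidase 1, was at 148, 165 and 152 CPM in NSC, 107, 142 and 87.5 CPM in ENB, 224, 114 and 303 CPM in LNB, and 151, 221 and 201 CPM in Neuron.

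Ctsb, a cysteine protease, showed the LNB split too. Its total mRNA was at 439.6, 414 and 455 CPM in NSC, 195, 193 and 187 CPM in ENB, 739.5, 244 and 888 CPM in LNB, and 673, 754 and 702 CPM in Neuron. The LNB against ENB change of 1.70 ± 0.35 (edgeR adjusted p = 0.0279) rests on LNB libraries 1 and 3. Without those libraries together it was 0.42. That of Tpp1, a tripeptidyl peptidase, was then 0.48 in place of 2.40 ± 0.55. The hydrolase median was 0.18. This fit holds LNB library 2 alone in its group, so a lost call cannot be told from the smaller group. None of the 4 calls in LNB against ENB held when any single ENB library, or LNB library 1 or 3 alone, was left out (adjusted p up to 0.183, for Psap). Among libraries with the same second index the LNB minus ENB difference of Ctsb in mean log2(CPM + 1) was 0.35 for LNB library 2 against 2 ENB libraries and 2.07 for LNB libraries 1 and 3 against 1 ENB library. Mature astrocyte markers followed the same order of libraries, as given above, with 6 of 9 called higher in LNB than in ENB. So did other marker lists: 6 neural stem cell markers summed to 4719, 827 and 7297 CPM in LNB libraries 1, 2 and 3, 6 olfactory ensheathing cell markers to 2458, 669 and 7636 CPM, and 8 endothelial markers to 18.4, 2.07 and 373 CPM. In LNB against ENB 2 of the 6 stem cell and 3 of the 6 ensheathing cell markers were called higher. In ENB against NSC 5 of 9 mature astrocyte markers were lower, and the 9 summed to 186 to 982 CPM in ENB, against 4959 to 6208 CPM in NSC. The part of these marker lists in the hydrolase and membrane protein changes was not tested.

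Other calls of the NSC to ENB step rested on few libraries too. Since some ENB and LNB libraries came from the same animals, the fits were repeated with the animal as a block, in which Ulk2 was the only one of the 7 members called in ENB against NSC that remained, and Ctsb the only one of the 4 in LNB against ENB. Neu1, the lysosomal sialidase, was at 18.9, 30.4 and 29.2 CPM in NSC, 51.9, 79.8 and 73.4 CPM in ENB, 50.7, 74.8 and 73.4 CPM in LNB, and 101, 87.9 and 86.2 CPM in Neuron. It rose in ENB by 1.39 ± 0.27 (adjusted p = 0.00953), opposite in direction to most hydrolases, and in Neuron against NSC by 1.81 ± 0.27 (adjusted p = 0.000725). Without NSC library 1 the ENB call was lost (adjusted p = 0.0542). Cd63 and Ctsz lost theirs without NSC library 2 or 3 or any ENB library (adjusted p up to 0.0945), and Gaa without any NSC or ENB library, LNB library 1 or Neuron library 3 (up to 0.135). Mcoln1, the lysosomal calcium channel TRPML1, was at 45.7, 62.5 and 51.3 CPM in NSC, 78.8, 72.2 and 94.1 CPM in ENB, 78.7, 78.6 and 65.2 CPM in LNB, and 114, 85.2 and 106 CPM in Neuron. It rose in Neuron against NSC by 0.94 ± 0.22 (adjusted p = 0.00856), and every Neuron library lay above every NSC library.

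**Figure D3:**
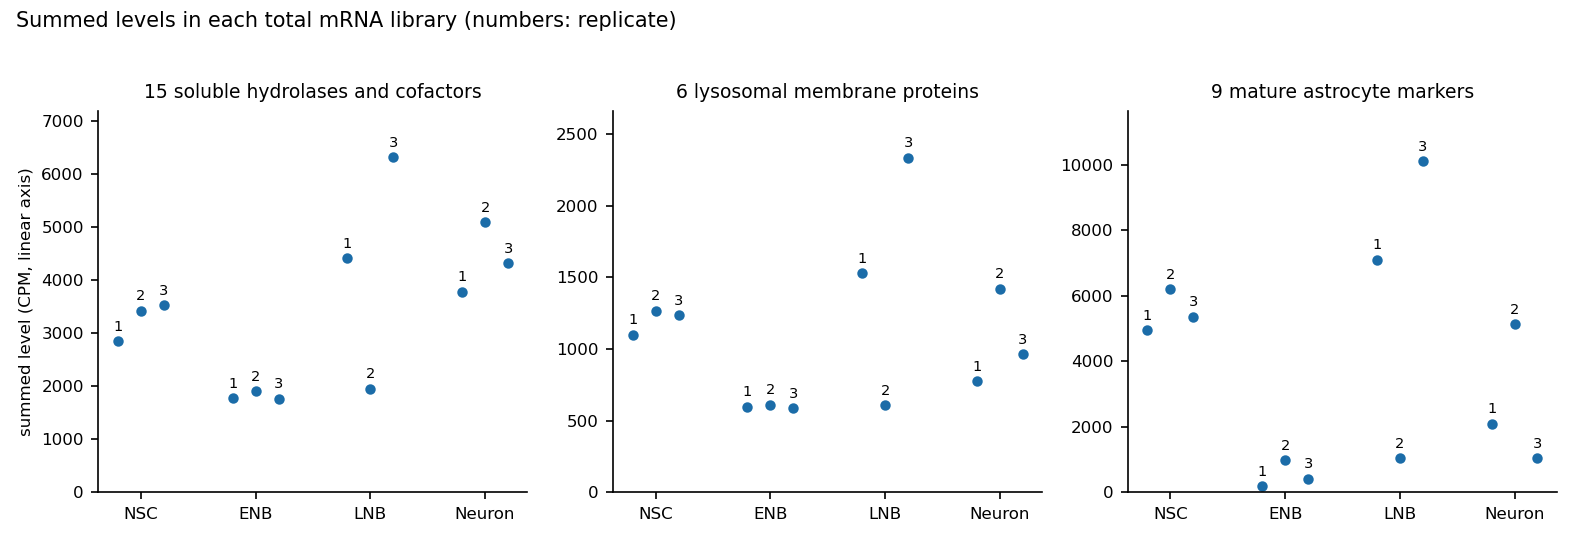
Summed level in CPM (vertical axis) of 15 hydrolases and cofactors, 6 lysosomal membrane proteins and 9 mature astrocyte markers in each of the 12 total libraries, by stage, with replicate numbers beside the points. LNB libraries 1 and 3 lie at 4424 and 6324 CPM for the hydrolases and at 7109 and 10106 CPM for the astrocyte markers, while LNB library 2 lies at 1958 and 1041 CPM.

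Npc2, a small protein that carries cholesterol out of the lysosome lumen, had the largest fall among hydrolases and cofactors in Neuron against NSC of both kinds of RNA. Its total mRNA was at 189.9, 257 and 248 CPM in NSC, 252, 251 and 217 CPM in ENB, 204, 135 and 294 CPM in LNB, and 103, 84.3 and 57.2 CPM in Neuron. Its ribosome-bound mRNA was at 159 and 229 CPM in NSC, 76.9 and 98.6 CPM in ENB, 59.1, 50.9 and 55.8 CPM in LNB, and 23.9 and 13.5 CPM in Neuron, each stage below the one before without overlap. In total mRNA the fall came at the last stage, with Neuron below every other library. In Neuron against NSC, Npc2 fell by 1.51 ± 0.30 on the log2 scale in total mRNA (edgeR adjusted p = 0.00352). In ribosome-bound mRNA it fell by 3.38 ± 0.37 (adjusted p = 6.2e-06), and both calls held with any single library left out. In Neuron against LNB it fell by 1.37 ± 0.29 in total mRNA (adjusted p = 0.00965). With LNB libraries 1 and 3 left out this was -0.74 (adjusted p = 0.206). In ribosome-bound mRNA it fell by 1.56 ± 0.33 (adjusted p = 0.0128), with an adjusted p of 0.154 without Neuron library 2 and of 0.149 with the animal as a block. With the second index as a term no member was called lower in this ribosome-bound step. In ENB against NSC the ribosome-bound level fell by 1.15 ± 0.34 (adjusted p = 0.0467). This call was lost in 11 of the refits that left out a library (adjusted p up to 0.244), among them each that left out an NSC or ENB library. It was lost with the animal as a block too (adjusted p = 0.678), a fit that called no gene at all in this step. Against the OB control, at 74.4, 77.7 and 53.4 CPM, the Neuron immunoprecipitates were lower by -1.87 ± 0.33 on the log2 scale (adjusted p = 0.00118).

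In ribosome-bound mRNA the lysosomal genes diverged from the pump between NSC and Neuron, with 9 of the 21 hydrolases, cofactors and membrane proteins called lower and Neu1 called higher, where 15.7% of all genes were called lower and 11% higher. With the second index as a term, 4 of the 9 lower calls remained (Cd63, Hexa, Lamp2 and Npc2), Neu1 was not called and Psap was called higher. Cd63 was at 308 and 440.4 CPM in NSC, 66.9 and 87.8 CPM in ENB, 79.4, 70.3 and 87.1 CPM in LNB, and 83.4 and 59.3 CPM in Neuron, against 118, 67.8 and 54.1 CPM in the SVZ controls and 112, 124 and 71.6 CPM in the OB controls. Both NSC libraries stood above all others and the later stages lay within the range of the controls. The fall in ENB against NSC was 2.27 ± 0.36 (adjusted p = 0.00297), and held with any single library left out. It was not called with the animal as a block (-2.07, adjusted p = 0.356), a fit that called no gene at all in this step. NSC exceeded the SVZ control by 2.23 ± 0.32 (adjusted p = 0.000481). Lamp1 was at 439 and 609 CPM in NSC, 324 and 363 CPM in ENB, 285, 265 and 304 CPM in LNB, and 264 and 170.3 CPM in Neuron. It fell by 1.27 ± 0.45 in Neuron against NSC (adjusted p = 0.0461). This call was lost in 11 refits that left out a library, including each NSC, ENB, LNB and Neuron library (adjusted p up to 0.243), and with the second index as a term the change was 0.0738. Ctsd was at 460.3 and 517 CPM in NSC, 441 and 379 CPM in ENB, 301, 277 and 288 CPM in LNB, and 215 and 186 CPM in Neuron. It fell by 1.28 ± 0.37 (adjusted p = 0.0159), a call lost without NSC library 2 (0.0697), Neuron library 1 (0.0505) or Neuron library 2 (0.101).

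Ctsb, in contrast, was at 538 and 673 CPM in NSC, 521 and 538 CPM in ENB, 497, 481 and 525 CPM in LNB, and 539 and 442 CPM in Neuron immunoprecipitates, and no step was called. Ctsa was at 182 and 237 CPM in NSC, 191 and 249 CPM in ENB, 124, 151 and 129 CPM in LNB, and 148 and 103 CPM in Neuron. Neu1 was at 39 and 40.8 CPM in NSC, 61.3 and 66.4 CPM in ENB, 61.9, 62.3 and 75 CPM in LNB, and 87.4 and 57.5 CPM in Neuron. It was higher in Neuron than in NSC by 0.86 ± 0.29 (adjusted p = 0.0354), a call lost without either NSC library, LNB library 1 or 2, or Neuron library 1 (up to 0.263). Mcoln1 was at 59.3 and 46.8 CPM in NSC, 52.4 and 67.2 CPM in ENB, 63.9, 71.3 and 86.8 CPM in LNB, and 85.1 and 73 CPM in Neuron, with no step called. Markers of other cells fell along with the lysosomal genes in these immunoprecipitates. All 14 microglia and macrophage markers and all 9 mature astrocyte markers were called lower in Neuron than in NSC. The microglia markers summed to 577 and 692 CPM in NSC, 1168 and 1312 CPM in ENB, 380 to 462 CPM in LNB, and 97.6 and 142 CPM in Neuron. Astrocyte markers summed to 286 and 418 CPM in Neuron, against 8220 and 10328 CPM in NSC. All 8 oligodendrocyte markers were lower too, with mean sums of 694 CPM in Neuron and 8320 CPM in NSC. Of 6 olfactory ensheathing cell markers, 4 were lower and 1 higher, with mean sums of 447 CPM in Neuron and 4907 CPM in NSC, and these lists share a gene. In total mRNA the microglia markers summed to 26.3 to 205 CPM across the 12 libraries. Since the Neuron immunoprecipitates carry a sorting protocol, a change of input from NSC to Neuron cannot be told apart from these changes. The part of other cells in the ribosome-bound changes was not tested.

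**Figure D4:**
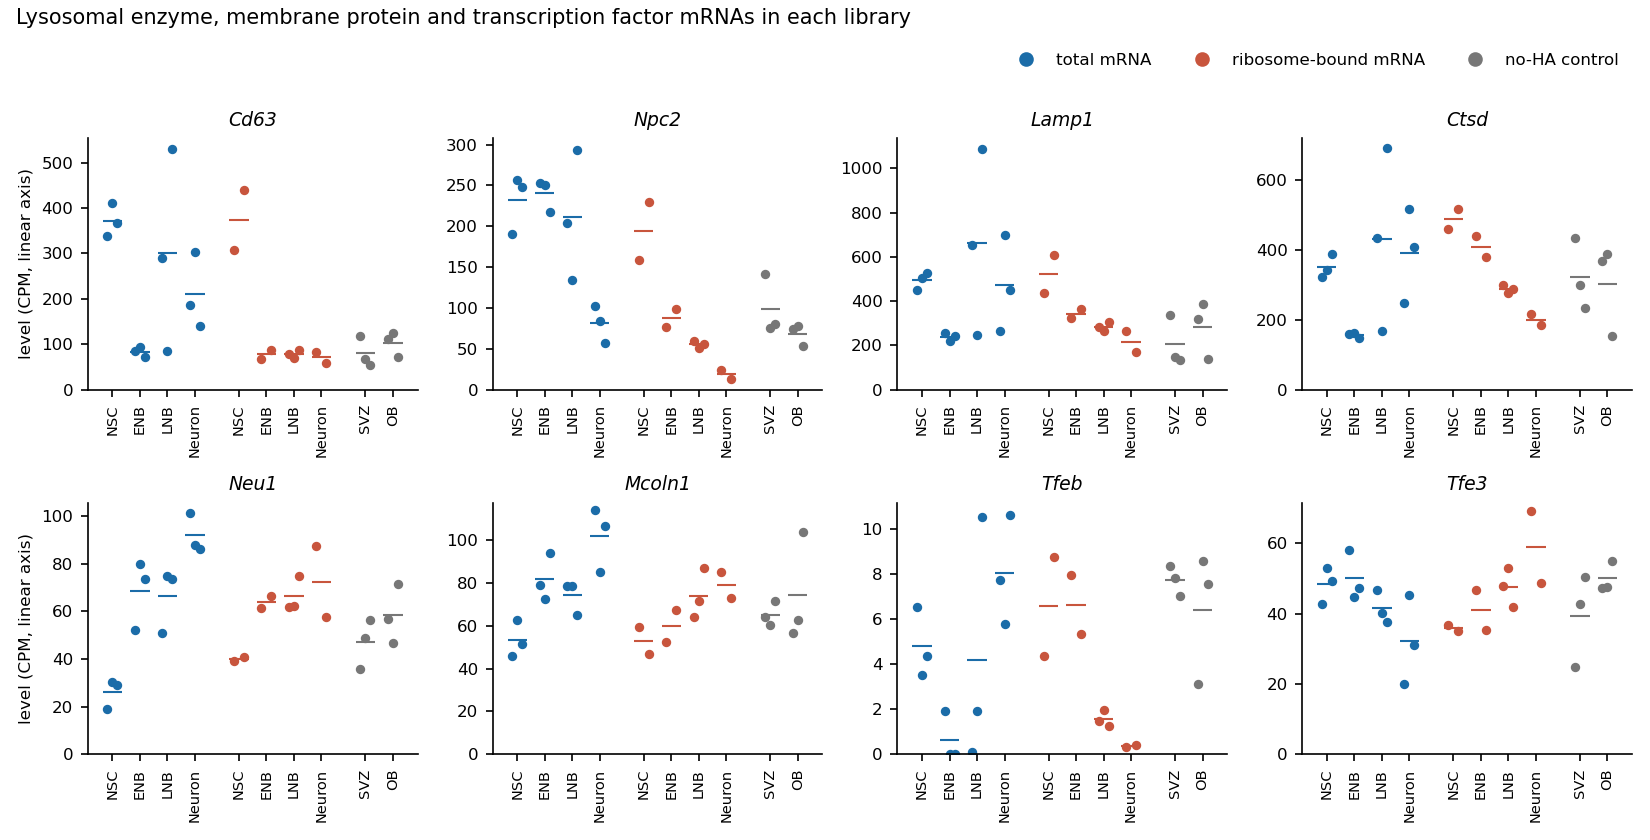
Level in CPM (vertical axis) of Cd63, Npc2, Lamp1, Ctsd, Neu1, Mcoln1, Tfeb and Tfe3 in all 27 libraries, by group; points are libraries in blue for total mRNA, red for ribosome-bound mRNA and grey for no-HA controls, and bars are group means. Ribosome-bound Npc2 lies at 23.9 and 13.5 CPM in Neuron, against 159 and 229 CPM in NSC, and total LNB points of Cd63, Lamp1 and Ctsd are split between library 2 and libraries 1 and 3.

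Of the transcription factors, Tfeb was scarce and lowest in the Neuron immunoprecipitates. Its ribosome-bound mRNA was at 4.37 and 8.75 CPM in NSC (28 and 64 counts), 7.94 and 5.33 CPM in ENB, 1.47, 1.95 and 1.25 CPM in LNB, and 0.328 and 0.422 CPM in Neuron (4 and 5 counts). The OB controls held 3.14, 8.56 and 7.54 CPM and the SVZ controls 8.35, 7.8 and 7.03 CPM, so the LNB and Neuron immunoprecipitates lay below every control. Tfeb was lower in Neuron than in NSC by -4.08 ± 0.77 on the log2 scale (edgeR adjusted p = 0.000904) and than in the OB control by -4.04 ± 0.74 (adjusted p = 0.0015), and both calls held with any single library left out. It fell in LNB against ENB by 2.09 ± 0.61 (adjusted p = 0.032) and against the OB control by 2.04 on the log2 scale. The first call was lost without any single ENB or LNB library (adjusted p up to 0.184), and the second without any LNB library or OB control 2 or 3 (up to 0.148). In total mRNA the counts were 108, 46 and 39 in NSC and 22, 0 and 0 in ENB. They were 1, 28 and 59 in LNB and 73, 47 and 57 in Neuron. Mean levels were 4.81 CPM in NSC, 0.633 CPM in ENB, 4.19 CPM in LNB and 8.03 CPM in Neuron. Total Tfeb was thus highest by mean in Neuron (5.75 to 10.6 CPM), where its ribosome-bound level was lowest. The Neuron range overlapped those of NSC (3.51 to 6.54 CPM) and LNB. Neuron against NSC gave 0.74 ± 1.49 on the log2 scale (adjusted p = 0.761). Single libraries decided the level in ENB and LNB, and no step was called. Tfe3 was at 42.8, 53.1 and 49.2 CPM in NSC, 58.1, 44.8 and 47.2 CPM in ENB, 46.8, 40.1 and 37.8 CPM in LNB, and 20, 45.4 and 31.1 CPM in Neuron in total mRNA, and at 35 to 69.1 CPM across the ribosome-bound libraries. All stages overlapped for total Tfe3.

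Of the 7 genes of autophagy initiation and conjugation, Ulk2 and Becn1 were called higher in ENB than in NSC in total mRNA. Ulk1 and Ulk2 encode kinases that start autophagosome formation, and Becn1 a subunit of the lipid kinase complex that follows them. Total Ulk2 was at 36.9, 31.1 and 41.6 CPM in NSC, 175, 177 and 98.7 CPM in ENB, 102, 195 and 73.5 CPM in LNB, and 84.2, 72.7 and 43.6 CPM in Neuron. Total Ulk1 was at 42.1, 44.6 and 45.3 CPM in NSC, 94.8, 94.4 and 77.5 CPM in ENB, 145, 109.7 and 67.5 CPM in LNB, and 68.6, 15.7 and 41.3 CPM in Neuron. Becn1 was at 79.3, 95.9 and 95.9 CPM in NSC, 142, 174 and 159.5 CPM in ENB, 89.5, 139 and 105 CPM in LNB, and 118, 173 and 142 CPM in Neuron. All 3 genes had every ENB library above every NSC library. The calls in ENB against NSC were Ulk2, at 2.04 ± 0.39 (edgeR adjusted p = 0.00844; 0.0511 without NSC library 2), and Becn1, at 0.81 ± 0.22 (adjusted p = 0.0387; lost without any NSC or ENB library, up to 0.207). Becn1 was also called higher in Neuron than in NSC, by 0.68 ± 0.22 (adjusted p = 0.0429), a call lost in 9 refits, among them each without an NSC library (up to 0.138). Ulk1 differed among the 4 stages by the F test and was not called in a single step. The conjugation genes Atg5, Atg7 and Atg12 were not called in any total comparison.

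In the immunoprecipitates Ulk2 was at 80.5 and 66.5 CPM in NSC, 80.5 and 93.1 CPM in ENB, 81.2, 71.6 and 93 CPM in LNB, and 73 and 69.8 CPM in Neuron, within or close to the 47.5 to 83.2 CPM of the controls. Ulk1 was at 32.9 and 42.8 CPM in NSC, 66 and 60 CPM in ENB, 88.3, 86 and 90.2 CPM in LNB, and 53.4 and 69.1 CPM in Neuron. Becn1 was at 128 and 138 CPM in NSC, 157 and 157 CPM in ENB, 115, 125 and 142 CPM in LNB, and 159 and 156 CPM in Neuron. By the F test Ulk1 differed among the 4 stages in ribosome-bound mRNA too, and no single step was called for these 3 genes. Atg3, the enzyme that joins ATG8 proteins to lipid, was higher in NSC immunoprecipitates than in the SVZ control by 1.17 ± 0.25 (adjusted p = 0.00675), which held with any single library left out.

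The ATG8 family did not move as one. Its members LC3A and LC3B (Map1lc3a, Map1lc3b) and GABARAP, GABARAPL1 and GABARAPL2 coat the autophagosome membrane, and Sqstm1 encodes p62, which ties ubiquitinated cargo to them. In Neuron against NSC of total mRNA, Gabarapl1 and Map1lc3a rose, Gabarap fell, and the other 3 were not called. Gabarapl1 was at 224, 199 and 279 CPM in NSC, 372, 258 and 413 CPM in ENB, 383, 422 and 298 CPM in LNB, and 556, 529 and 640.0 CPM in Neuron. It rose by 1.30 ± 0.23 in Neuron against NSC (edgeR adjusted p = 0.00194). Gabarap was at 263, 303 and 328 CPM in NSC, 384, 417 and 334 CPM in ENB, 312, 268 and 292 CPM in LNB, and 116, 183 and 109.9 CPM in Neuron. It fell by 1.13 ± 0.22 in Neuron against NSC (adjusted p = 0.00343). Against LNB it fell by 1.09 ± 0.22 (adjusted p = 0.00682), and with LNB libraries 1 and 3 left out the change was -0.99 (adjusted p = 0.0827). These paralogs thus lay in opposite order, with Neuron libraries above all others for Gabarapl1 and below all others for Gabarap. Map1lc3a was at 122, 108 and 147 CPM in NSC, 156, 143 and 151 CPM in ENB, 167, 161 and 144 CPM in LNB, and 259, 237 and 174 CPM in Neuron. It rose by 0.83 ± 0.20 in Neuron against NSC (adjusted p = 0.0105; 0.066 without NSC library 2).

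Map1lc3b was highest in ENB, at 346, 319 and 341 CPM in NSC, 593, 542 and 595 CPM in ENB, 478, 509 and 493 CPM in LNB, and 273, 509 and 393 CPM in Neuron. Its rise in ENB against NSC was 0.78 ± 0.21 (adjusted p = 0.0387), lost without any NSC or ENB library or LNB library 1 (up to 0.16). Gabarapl2 was at 105, 131 and 138 CPM in NSC, 154, 122 and 144 CPM in ENB, 119, 128 and 138 CPM in LNB, and 125, 143 and 188 CPM in Neuron in total mRNA. Sqstm1 was at 376, 409 and 445 CPM in NSC, 423, 299 and 392 CPM in ENB, 418, 434 and 409.6 CPM in LNB, and 445, 620.4 and 634 CPM in Neuron. Neither was called in a step of total mRNA. Pseudogenes are annotated for several of these genes, 6 entries for the LC3 genes and 6 for Gabarapl2, so their reads could be split between copies.

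**Figure D5:**
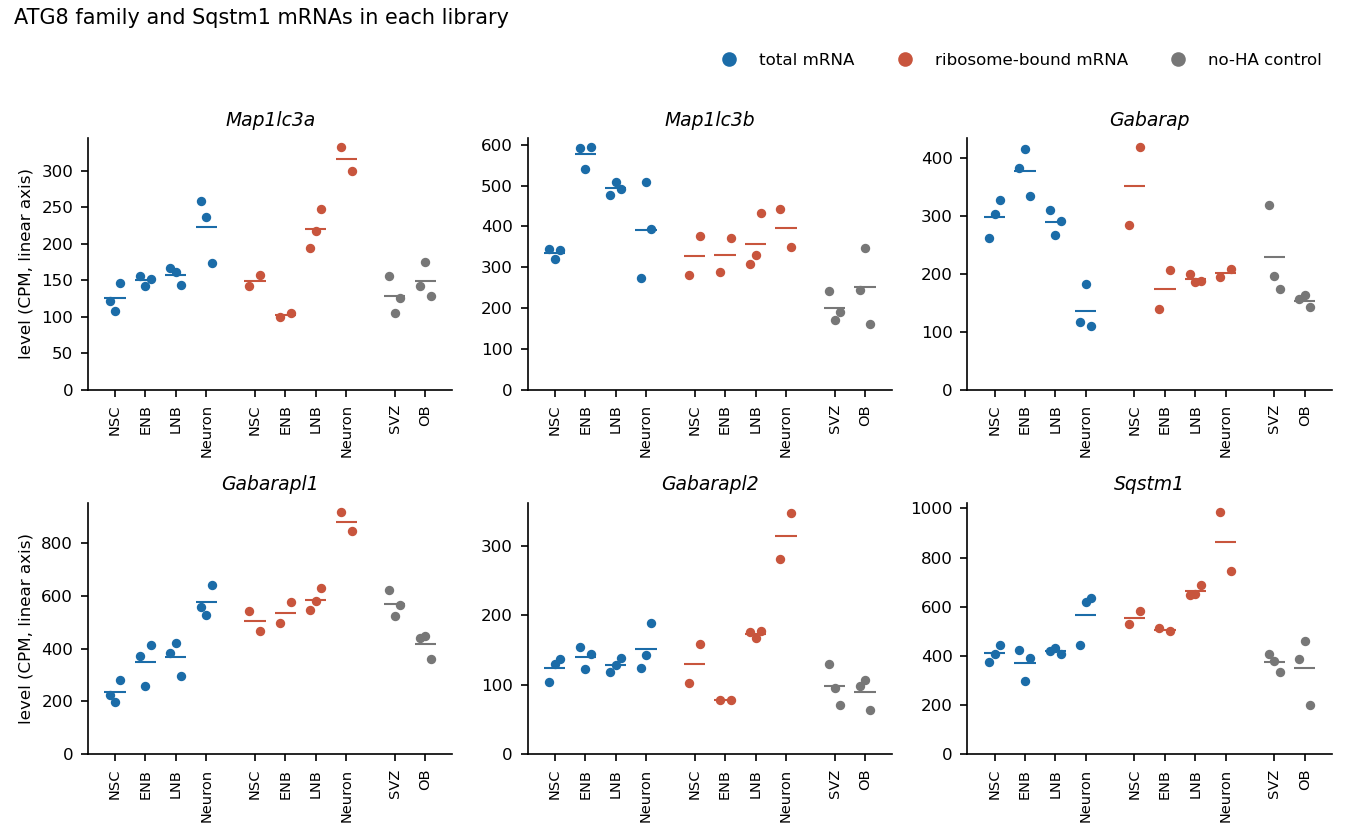
Level in CPM (vertical axis) of Map1lc3a, Map1lc3b, Gabarap, Gabarapl1, Gabarapl2 and Sqstm1 in all 27 libraries, by group; points are libraries in blue for total mRNA, red for ribosome-bound mRNA and grey for no-HA controls, and bars are group means. In total mRNA Gabarapl1 reaches 529 to 640.0 CPM in Neuron while Gabarap drops to 109.9 to 183 CPM, and ribosome-bound Gabarapl2 stands at 281 and 348 CPM in Neuron, above every other group.

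In ribosome-bound mRNA Gabarapl2 was at 103 and 159 CPM in NSC, 78.4 and 77.5 CPM in ENB, 176, 168 and 178 CPM in LNB, and 281 and 348 CPM in Neuron, against 98.5, 107 and 64.3 CPM in the OB controls. The Neuron libraries lay above all others, and the excess over the OB control was 1.81 ± 0.27 (edgeR adjusted p = 0.000419). Map1lc3a was at 143 and 157 CPM in NSC, 99.2 and 105 CPM in ENB, 195, 217 and 248 CPM in LNB, and 334 and 299.7 CPM in Neuron. It exceeded the OB control in Neuron by 1.09 ± 0.22 (adjusted p = 0.00233). Both rose in LNB against ENB, Gabarapl2 by 1.16 ± 0.29 (adjusted p = 0.0137; 0.095 without ENB library 1 and 0.0906 without ENB library 2) and Map1lc3a by 1.11 ± 0.23 (adjusted p = 0.00378; 0.0522 without ENB library 1).

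Gabarapl1 was at 543 and 468 CPM in NSC, 498 and 576 CPM in ENB, 546, 582 and 629 CPM in LNB, and 916 and 844 CPM in Neuron. Sqstm1 was at 528 and 583 CPM in NSC, 514 and 500.4 CPM in ENB, 649, 652 and 690.4 CPM in LNB, and 983 and 744 CPM in Neuron. Both exceeded the OB control in Neuron, Gabarapl1 by 1.08 ± 0.20 (adjusted p = 0.0016) and Sqstm1 by 1.30 ± 0.28 (adjusted p = 0.00356). These excesses over the control, for all 4 genes, held with any single library left out. When only the Neuron and OB control groups were fitted, those of Gabarapl2 and Map1lc3a remained called and those of Gabarapl1 (adjusted p = 0.0576) and Sqstm1 (0.0803) did not. In Neuron against NSC, Gabarapl1 (0.80 ± 0.22), Map1lc3a (1.08 ± 0.24) and Gabarapl2 (1.27 ± 0.31) were called higher. Map1lc3a held, while Gabarapl1 lost its call without NSC library 2 (adjusted p = 0.105) or Neuron library 1 (0.0703) and Gabarapl2 without NSC library 1 (0.0827). Gabarap was at 285 and 419.8 CPM in NSC, 140.3 and 207 CPM in ENB, 200.0, 186 and 187 CPM in LNB, and 194 and 208 CPM in Neuron. It fell in ENB against NSC by 1.02 ± 0.29 (adjusted p = 0.0423), a call lost in 9 refits, among them those without either ENB library or NSC library 2 (up to 0.263). Map1lc3b was at 279.9 and 375 CPM in NSC, 288 and 373 CPM in ENB, 309, 331 and 433 CPM in LNB, and 442 and 351 CPM in Neuron, which overlapped throughout.

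The change of ribosome-bound mRNA was then set against that of total mRNA between the same stages, with an interaction term over 21 libraries. From ENB to LNB, 8 members differed (edgeR adjusted p under 0.05), where 6.15% of all genes did, 1.89% higher and 4.26% lower. The ribosome-bound change was higher for Atp6v1a, Map1lc3a and Gabarapl2 and lower for Ctsa, Ctsb, Ctsd, Ctsz and Tpp1. Atp6v1a differed by 1.16 ± 0.33 (adjusted p = 0.0431), Gabarapl2 by 1.17 ± 0.30 (adjusted p = 0.0249) and Map1lc3a by 0.93 ± 0.26 (adjusted p = 0.0404), while Ctsd differed by -2.08 ± 0.50 (adjusted p = 0.02). With total LNB libraries 1 and 3 left out, LNB library 2 stood alone in its group, so a lost call cannot be told from the smaller group. The difference was then 1.03 for Atp6v1a, 0.93 for Map1lc3a and 1.198 for Gabarapl2, close to the values with all libraries. It was -0.51 in place of -1.89 ± 0.43 for Ctsb and -0.60 in place of -2.61 ± 0.66 for Tpp1.

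From LNB to Neuron, 4 members differed, where 3.15% of all genes did, 1.46% higher and 1.69% lower. The ribosome-bound change was lower for Atp6v1a by -1.61 ± 0.33 (adjusted p = 0.0159), for Atp6v1c1 by -1.45 ± 0.36 (adjusted p = 0.037) and for Atp6v1b2 by -1.32 ± 0.29 (adjusted p = 0.0208), and higher for Gabarap by 1.16 ± 0.31 (adjusted p = 0.0496). With LNB libraries 1 and 3 left out these were -1.37, -1.36, -1.06 and 1.13, with adjusted p of 0.0698 to 0.103. Under that alternative 4 others were called, all lower in the ribosome-bound change: Ctsb (-1.49), Ctsd (-1.66), Gaa (-1.63) and Tpp1 (-1.99). By these terms Atp6v1a in the immunoprecipitates rose relative to total from ENB to LNB and fell relative to it from LNB to Neuron. These contrasts share the LNB libraries. In the contrast from LNB to Neuron 3 of 6 mature neuron markers were called lower too, and in that from ENB to LNB all 9 mature astrocyte markers were. ENB came from SVZ and LNB from OB, and the no-HA controls of these tissues held Atp6v1a at means of 200 and 343 CPM. The OB minus SVZ control difference was 0.78 ± 0.28 on the log2 scale (edgeR adjusted p = 0.083). The part of these markers and of this background was not tested. From NSC to Neuron only Npc2 was called, at -1.81 ± 0.44 (adjusted p = 0.0241), where 5.85% of all genes were and 3.39% were lower. From NSC to ENB no member was called by edgeR, with 11 at an unadjusted p under 0.05 and 3 called by DESeq2, where 2.81% of all genes were. None of these 13 calls held in every refit that left out a library.

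Between genes, levels can be compared per length, in TPM, the deposited level normalised for transcript length. In NSC total mRNA the highest members were Cd63 at 716 ± 7.49 TPM, Psap, the precursor of the saposins, at 672 ± 47.2 TPM, and Atp6v0c at 616 ± 136 TPM (SD, n = 3). The libraries of these 3 overlapped, so their order is not beyond the spread. The lowest was Tfeb at 5.13 ± 2.75 TPM. In Neuron total mRNA Atp6v0c led at 2148 ± 298 TPM, followed by Psap at 1230.2 ± 290 TPM and Atp6v0b at 905 ± 81.9 TPM (SD, n = 3). In Neuron immunoprecipitates the order was Atp6v0c at 2713 ± 38.9 TPM, Atp6v1e1 at 1239 ± 83.8 TPM and Psap at 1204 ± 230 TPM (SD, n = 2), the last 2 of which did not differ beyond their spread, and Tfeb was again lowest at 0.37 ± 0.17 TPM.

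Other genes of the pathway, 118 in all, were counted in the same fits. In total mRNA 18 of the 115 tested were called higher and 3 lower in Neuron than in NSC, where 11% and 12.8% of all genes were. In Neuron against LNB 8 were higher and 4 lower, where 5.33% and 9.34% of all genes were. In ribosome-bound mRNA 17 of 116 were called higher and 17 lower in Neuron than in NSC, where 11% and 15.7% of all genes were. Against the OB control 19 were higher and 16 lower in Neuron immunoprecipitates, where 11.6% and 15.7% of all genes were. The largest rise among other V-ATPase subunits in total Neuron against LNB was that of Atp6v1g2, the G subunit found in neurons, at 3.59 ± 0.58 on the log2 scale, while Atp6v0e fell by 0.96. Rragd, a Rag GTPase that recruits mTORC1 to the lysosome, rose by 2.79 ± 0.43 in the same comparison and by 2.46 in ribosome-bound Neuron against NSC. Among 32 other hydrolases and cofactors, 9 were called lower in ribosome-bound Neuron against NSC, and 10 lower in Neuron immunoprecipitates against the OB control. Of the other genes of the pathway, 4 stand in the list of microglia markers too and are counted in both.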

How the data were processed

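The authors deposited raw counts and expected counts per Ensembl gene and TPM values for 27 libraries. Per the submitters' processing notes, RSEM 1.2.21, Bowtie2 2.2.6 and the build GRCm38 were used, with roles not given in the sources used here. The raw count table as deposited was the main input; the expected counts deposited by the authors were rounded to whole numbers for an alternative, and the TPM values deposited by the authors served only to compare levels between genes (92 TPM rows without an ID were not used). Of 45195 IDs, 44548 were matched to symbols. The 46 members and all lists of other genes were chosen with earlier results of these data known.

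Total libraries, immunoprecipitates with controls, and the 21 libraries of the interaction were fitted separately with edgeR 4.0.16 in R 4.3.3 (filterByExpr, TMM factors, quasi-likelihood test, Benjamini-Hochberg over all genes tested), with no covariate. CPM values use the TMM factors. Values in every library are printed by a rule. It takes, in each role group of 4 or more, the 2 members with the lowest F test p in total and the 1 in ribosome-bound mRNA. It adds the 5 ATG8 genes, both transcription factors, Lamp1, Ctsd, Sqstm1 and up to 6 members by p that pass in an interaction. Each library came from 1 to 2 mice, some shared between groups, so p-values measure the spread between these libraries. Tested on simulated data, the fits recovered 62 of 100 genes changed by 2 on the log2 scale and 8 of 100 changed by 1 in total Neuron against LNB, and 88 and 12 of 100 in ribosome-bound Neuron against LNB. In the interaction of Neuron against LNB they recovered 27 and 0 of 100. Alternatives were RLE factors, no filter, DESeq2 1.42.0, expected counts, the replicate number or the animal as a block, the second index as a term, only the groups of a contrast, and each library left out. Leaving out total LNB libraries 1 and 3 together was added after seeing the data. It leaves LNB library 2 alone in its group, so a call lost there cannot be told from the smaller group.

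Pairing was checked by the correlation of deviations from group means. Same-numbered libraries gave -0.154 to 0.0746 in total and -0.11 to 0.154 in immunoprecipitated libraries, so the numbers alone do not pair them. The animal numbers do pair ribosome-bound ENB and LNB libraries 1 and 2 (0.119 and -0.0249), and total ENB 3 with LNB 2 and ENB 2 with LNB 3 (0.0556 and 0.0801). ATG8 protein sequences were planned and are not used here.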

Additional observations from a re-analysis of the deposited data

Results flagged for a closer look

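The members below were picked out because the change between 2 stages differed between ribosome-bound and total mRNA, by an interaction term in edgeR's quasi-likelihood test (Benjamini-Hochberg adjusted p under 0.05 over all genes). Values are the ribosome-bound change minus the total change on the log2 scale. For LNB minus ENB the difference was 1.16 for Atp6v1a, 0.93 for Map1lc3a and 1.17 for Gabarapl2. In the other direction it was -1.74 for Ctsa, -1.89 for Ctsb, -2.08 for Ctsd, -1.75 for Ctsz and -2.61 for Tpp1. For Neuron minus LNB it was -1.61 for Atp6v1a, -1.32 for Atp6v1b2, -1.45 for Atp6v1c1 and 1.16 for Gabarap. For Neuron minus NSC it was -1.81 for Npc2. Sorted cells gave the total mRNA and whole-tissue homogenate the ribosome-bound mRNA, with the input of the Neuron immunoprecipitates not settled by their labels. The kind of RNA and the way the cells were taken thus cannot be told apart. No member had a library picked out as an outlier, since no group held 4 libraries.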

How the results depend on the processing

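Counts are members called, with that of the analysis reported above in brackets or after "in place of". Leaving out 1 library each gave 18 to 31 (27) for total mRNA among the 4 stages, 1 to 14 (7) for ENB against NSC, 0 to 13 (4) for LNB against ENB, 10 to 12 (10) for Neuron against LNB and 15 to 20 (18) for Neuron against NSC. In ribosome-bound mRNA it gave 17 to 29 (24), 1 to 7 (3), 0 to 11 (6), 0 to 4 (1) and 13 to 29 (24) in the same order. Against controls it gave 2 to 13 (7) for NSC, 0 to 2 (0) for ENB, 0 to 12 (10) for LNB and 16 to 23 (21) for Neuron, and 0 to 4 (0) for OB against SVZ controls. For ribosome-bound relative to total it gave 0 to 5 (0) in ENB against NSC, 0 to 17 (8) in LNB against ENB, 0 to 4 (4) in Neuron against LNB and 0 to 5 (1) in Neuron against NSC. Counts over all genes moved in these refits too. They were 96 to 1643 (663) for total LNB against ENB and 95 to 2318 (1918) for LNB against its control. For LNB against ENB relative to total they were 321 to 2302 (1224).

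DESeq2 called 12 members in place of 7 for total ENB against NSC, 12 in place of 4 for total LNB against ENB, 16 in place of 10 for total Neuron against LNB, 5 in place of 3 for ribosome-bound ENB against NSC, 5 in place of 1 for ribosome-bound Neuron against LNB. It called 1 in place of 0 for ENB against its control, 3 in place of 0 between the controls, and, relative to total, 3 in place of 0 for ENB against NSC and 4 in place of 1 for Neuron against NSC. Over all genes DESeq2 called 3338, 1877, 3873, 2854 and 1716, then 804, 3043, 1495 and 2408, in the same order. The main fits called 1772, 663, 2580, 1579 and 787, then 290, 2243, 559 and 1164. Fitting only the groups of a contrast gave 18, 0 (16 at an unadjusted p under 0.05) and 5 for the 3 steps of total mRNA. It gave 1, 16 and 11 for those of ribosome-bound mRNA, the 11 being 10 higher and 1 lower. It gave 6 for LNB and 8 for Neuron against the OB control, and, relative to total, 5, 5 and 2 for the 3 steps. Over all genes these fits called 4110, 203 and 1290, then 918, 5222 and 1406, then 3326 and 1796, then 1097, 1080 and 554. The main fits called 1772, 663 and 2580, then 1579, 2452 and 787, then 1918 and 5221, then 559, 1224 and 627.

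The replicate block gave 1 for total LNB against ENB, 3 for NSC against its control and 2 for Neuron against NSC relative to total, and every other count of calls stayed within 1.5 times. Over all genes it called 205, 2023 and 1050 in these 3, in place of 663, 2925 and 1164. The animal block gave 1 and 1 for the first 2 steps of total mRNA and 0, 2 and 0 for the 3 steps of ribosome-bound mRNA. Each 0 had 1 member at an unadjusted p under 0.05. Over all genes the animal block called 503 and 452 in place of 1772 and 663 in total mRNA. In ribosome-bound mRNA it called 0, 1217 and 133 in place of 1579, 2452 and 787. The second index as a term gave 3 for total ENB against NSC and 0 for total LNB against ENB (13 at an unadjusted p under 0.05). It gave 9 for ribosome-bound Neuron against LNB, 9 higher and 0 lower in place of 0 higher and 1 lower. It gave 3 for NSC against its control, 2 between the controls and 0 for LNB against ENB relative to total (15 unadjusted). Over all genes it called 1333, 155, 673, 1176, 1964 and 449 in the same order, in place of 1772, 663, 787, 2925, 2243 and 1224. It could not be estimated for Neuron against LNB or NSC relative to total. RLE factors gave 1 for ribosome-bound ENB against NSC and 3 for LNB against its control. No low-count filter gave 5 for ribosome-bound ENB against NSC, 2 for Neuron against LNB and 2 between the controls, and expected counts gave 1 for ribosome-bound ENB against NSC. Leaving out total LNB libraries 1 and 3, added after seeing the data, left LNB library 2 alone in its group. A call lost there cannot be told from the smaller group. Tpp1 in Neuron against LNB turned to 1.82 in that fit. Lamp1 in ribosome-bound Neuron against NSC turned to 0.0738 with the second index. The causes were not tested.

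RLE factors moved the median of all genes by over 0.1 in 5 comparisons: to -0.01 in place of -0.18 in total Neuron against LNB (48.4% in place of 36.3% of calls higher), to 0.06 in place of -0.06 in total Neuron against NSC. They moved it to -0.06 in place of 0.08 in ribosome-bound LNB against ENB (40.2% in place of 52.9%), to -0.25 in place of -0.08 in LNB against its control (46.5% in place of 69.6%), and to -0.15 in place of -0.01 for Neuron against NSC relative to total (31.1% in place of 41.9%). The 2 or 3 libraries of a group limit what can be called at a change of 1 on the log2 scale.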
